A study of Mus musculus with 37 samples.

Results

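A set of 10 genes that mark alveolar macrophages was followed through lung RNA of 37 C57BL/6 mice. They are Marco, Chil3, Mrc1, Itgax, Atp6v0d2, Krt79, Plet1, Ctsk, Abcg1 and Cd68, the 10 rows with these symbols among the 24421 symbols of the deposited count table. They were chosen by name, with earlier results of these data known. Each mouse gave 1 library of whole lung, and values are read counts per 1000000 counts of the library (CPM). The groups were 7 mice mock exposed at 0 Gy (mock), 5 mock exposed mice with nicotinamide riboside (mock + NR), 7 mice given 0.75 Gy of silicon ions at 300 MeV/u (silicon), and 6 mice given both silicon ions and nicotinamide riboside (silicon + NR). A further 7 mice received 0.75 Gy of a simplified simulation of galactic cosmic radiation (GCR) and 5 received 0.75 Gy of gamma rays (gamma). The GCR beam was a mixture of protons (1 GeV, 34.8%, and 250 MeV, 39.2%), helium (250 MeV/u, 18.0%), oxygen (350 MeV/u, 5.8%), silicon (600 MeV/u, 1.1%) and iron ions (600 MeV/u, 1.0%). Nicotinamide riboside, a precursor of the coenzyme NAD, was given at 12 mM in the drinking water from before the exposure on. Males and females were 5 and 2 in mock, 4 and 1 in mock + NR, 3 and 4 in silicon, 4 and 2 in silicon + NR, 3 and 4 in GCR, and 3 and 2 in gamma. Neither the mice's age nor the time from exposure to sampling is given in the labels.

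Alveolar macrophages live on the air side of the alveoli, where they take up inhaled particles, microbes and spent surfactant. They arise from fetal monocytes under the cytokine GM-CSF, made largely by alveolar epithelium, and under TGF-beta, which together maintain the lipid-handling nuclear receptor PPAR-gamma. Surfactant uptake gives these cells a lysosomal and cholesterol-exporting character that sets them apart from the interstitial macrophages of the alveolar walls. Several of the 10 genes have other sources too: Ctsk is made by osteoclasts and fibroblasts, Plet1 by airway epithelium, Itgax by dendritic cells, and Cd68 by macrophages of every kind. In whole lung, fewer macrophages and less RNA per macrophage cannot be told apart.

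The 250 bases before the transcription start of 6 of these genes are shown, because they stand for how the genes varied over the libraries: Chil3, Itgax and Krt79 belong to the main set of correlated genes, Plet1 and Ctsk to a separate pair, and Marco had the widest spread. The sequences are from RefSeq (build GRCm38.p6), 5′ to 3′ on the gene's strand, with capitals for the motifs searched.
Chil3, chr3:106167565-106167814, minus strand: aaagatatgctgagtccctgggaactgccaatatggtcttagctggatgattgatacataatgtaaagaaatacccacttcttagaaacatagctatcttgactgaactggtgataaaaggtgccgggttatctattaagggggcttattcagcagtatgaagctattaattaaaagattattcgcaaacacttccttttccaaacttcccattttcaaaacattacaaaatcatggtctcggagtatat
Itgax, chr7:128129300-128129549, plus strand: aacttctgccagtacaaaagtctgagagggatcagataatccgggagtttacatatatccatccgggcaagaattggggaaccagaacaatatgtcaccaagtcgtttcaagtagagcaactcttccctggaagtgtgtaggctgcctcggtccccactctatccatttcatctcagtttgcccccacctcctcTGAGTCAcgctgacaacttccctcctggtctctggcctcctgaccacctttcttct
Krt79, chr15:101940325-101940574, minus strand: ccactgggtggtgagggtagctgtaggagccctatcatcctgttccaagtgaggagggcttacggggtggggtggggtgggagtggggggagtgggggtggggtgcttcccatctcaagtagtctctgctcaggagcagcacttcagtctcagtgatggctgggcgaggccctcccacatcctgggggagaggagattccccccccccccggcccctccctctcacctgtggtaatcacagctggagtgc
Plet1, chr9:50494275-50494524, plus strand: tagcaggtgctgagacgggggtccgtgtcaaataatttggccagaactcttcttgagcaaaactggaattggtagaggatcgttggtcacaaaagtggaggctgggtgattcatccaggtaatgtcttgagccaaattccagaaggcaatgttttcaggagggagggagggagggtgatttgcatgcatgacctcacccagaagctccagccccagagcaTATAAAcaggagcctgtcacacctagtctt
Ctsk, chr3:95498960-95499209, plus strand: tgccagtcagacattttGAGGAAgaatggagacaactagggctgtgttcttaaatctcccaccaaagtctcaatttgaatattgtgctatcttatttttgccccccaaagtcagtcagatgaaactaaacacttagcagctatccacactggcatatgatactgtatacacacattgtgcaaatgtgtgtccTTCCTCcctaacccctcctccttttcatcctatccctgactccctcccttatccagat
Marco, chr1:120505025-120505274, minus strand: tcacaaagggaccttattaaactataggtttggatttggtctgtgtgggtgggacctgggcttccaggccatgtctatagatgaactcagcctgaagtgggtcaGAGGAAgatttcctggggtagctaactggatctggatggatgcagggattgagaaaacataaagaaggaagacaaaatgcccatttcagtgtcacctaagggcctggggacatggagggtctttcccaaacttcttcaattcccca
A set of 5 motifs were searched on both strands in the 8 genes with a RefSeq entry here (all but Atp6v0d2 and Abcg1): GAGGAA, the core of sites of the macrophage factor PU.1; TGACTCA, an AP-1 site; TCACGTG and TCATGTG, sites of the MITF and TFE family of lysosomal factors; and TATAAA, the TATA box. None of these motifs overlaps another within the windows shown. GAGGAA stood in 4 of the 8 windows (Marco, Mrc1, Ctsk and Cd68), and in 23.3% of all 32851 promoter windows of this length. TGACTCA stood in 2 of the 8 (Itgax and Cd68) against 4.46% of all, TATAAA in 1 (Plet1) against 12.4%, and TCACGTG and TCATGTG in 0 of the 8 against 3.13% and 3.25%. A match describes letters only, and Chil3 and Krt79 held no match in their windows.

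The libraries held 9485197 to 66381526 counts (median 28476462). Airway and alveolar type 2 cell genes were present in every library: the 8 airway genes summed to at least 27500 CPM and the 8 type 2 cell genes to at least 2120 CPM. Libraries also differed in RNA of other tissues. Skeletal muscle RNA (Acta1, skeletal actin, over 1000 CPM) was present in 13 libraries: 4 of mock, 2 of mock + NR, 5 of silicon, 2 of silicon + NR, and 0 of GCR and gamma. In 3 libraries (silicon replicates 3 and 6 and mock + NR replicate 4) Ccl19, a chemokine of lymphoid stroma, exceeded 100 CPM. The ribosomal RNA precursor Rn45s took over 100000 CPM in mock replicate 4 and in GCR replicates 2, 5 and 6. Nppa, the atrial heart peptide, exceeded 10000 CPM in gamma replicates 3 and 4 (17500 and 24500 CPM). Gamma replicate 5, labelled female, had 3.73 CPM of Xist and 87.6 CPM of Ddx3y, against 160 to 310 and 0 to 0.633 CPM in the other 14 libraries labelled female. The 22 libraries labelled male had 1.14 to 7.25 and 49.3 to 114 CPM, so both values lay in the male range. This library was fitted as female, per its label. With that library left out, as with all libraries, no member passed the test in gamma against mock.

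All 10 genes were detected in every library, at 10 counts or more. Per kilobase of exon, Plet1 had the highest median level over the 37 libraries (30.6 CPM per kb), followed by Ctsk (25.4), Chil3 (17.9) and Cd68 (11.9). Mrc1 (4.35), Abcg1 (2.41), Atp6v0d2 (2.06), Itgax (2.04), Marco (1.44) and Krt79 (0.737) were lower on that scale. Siglecf, the surface lectin that with Itgax defines alveolar macrophages in flow cytometry, had a median of 1.24 CPM (0.0927 to 9.18), so the defining marker was detected but scarce. The 10 genes did not vary together as 1 group, and the correlations given further on place Plet1 and Ctsk with airway genes, against their label.

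Marco, a scavenger receptor for particles and bacteria, had the widest spread. It lies at chr1:120474538-120505024 on the minus strand (17 merged exons, GENCODE M21 on GRCm38, as for all gene positions here). In mock it ranged from 0.839 to 7.94 CPM with a median of 3.51, in GCR from 1.18 to 6.11 (median 2.75), and in silicon + NR from 0.644 to 5.41 (median 1.15). In silicon it ranged from 2.84 to 77.6 CPM with a median of 5.93. In mock + NR the 5 values were 0.678, 1.54, 0.376, 73.1 and 4.48 CPM, and in gamma 0.577, 1.29, 3.03, 0.969 and 1.27 CPM. The highest values belonged to 3 libraries, those with Ccl19 over 100 CPM: Marco was at 57.4 to 77.6 CPM in them and at 0.376 to 9.41 CPM in the other 34. The lowest value rests on 10 counts (95% Wilson interval 0.204 to 0.692 CPM), and the 73.1 CPM of mock + NR replicate 4 on 1985 (70.0 to 76.4); such intervals cover counting error only.

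Mrc1, the mannose receptor CD206 (chr2:14229392-14332057, plus strand), was the steadiest of the 10, from 11.4 to 44.7 CPM. Its group means ran from 23.3 ± 7.91 CPM in silicon + NR (SD, n = 6) to 31.7 ± 9.55 in mock (SD, n = 7). Itgax, the integrin chain CD11c (chr7:128129547-128150657, plus strand), ran from 1.29 to 18.8 CPM, with its highest mean in GCR at 13.4 ± 4.23 CPM (SD, n = 7) and its lowest in silicon + NR at 8.08 ± 5.14 (SD, n = 6). For both receptors the groups overlapped.

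Chil3 encodes the secreted chitinase-like protein Ym1 (chr3:106147554-106167564, minus strand). In mock it ranged from 23.2 to 283 CPM with a median of 45.4, and in silicon from 1.97 to 53.3 with a median of 22.4. It ranged from 2.33 to 194 CPM in silicon + NR (median 19.2) and from 5.68 to 134 in GCR (median 25.6). In mock + NR the values were 9.23, 1.58, 15.6, 18.4 and 44.4 CPM, and in gamma 38.2, 116, 48.3, 58.5 and 22.6 CPM. The high mock values of 283, 115 and 158 CPM came from replicates 1, 2 and 7, the 3 mock libraries without muscle RNA, while the 4 with it held 23.2 to 45.4 CPM. Chil3 has near-identical copies, so its counts are uncertain to the extent that reads were shared; Chil4, the closest, had a median of 0.189 CPM (0 to 16.9).

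Krt79, a keratin that marks alveolar macrophages among lung cells although keratins are epithelial proteins, lies at chr15:101929332-101940324 on the minus strand. It ranged from 1.81 to 15 CPM in mock (median 4.94), 1.77 to 4.98 in silicon (median 3.57), 1.02 to 9.30 in silicon + NR (median 2.36) and 1.49 to 15.1 in GCR (median 5.72). In mock + NR the values were 2, 1.14, 1.95, 3.02 and 3.71 CPM, and in gamma 3.82, 6.35, 8.42, 2.10 and 2.92 CPM. As for Chil3, mock replicates 1, 2 and 7 (10.6 to 15 CPM) stood above the 4 muscle-rich mock libraries (1.81 to 4.94 CPM).

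Abcg1, which exports cholesterol from macrophages (chr17:31057675-31117988, plus strand), ran from 4.81 to 73.6 CPM, with group means from 14.6 ± 8.18 CPM in silicon + NR (SD, n = 6) to 30.4 ± 21.1 in GCR (SD, n = 7). Atp6v0d2, a tissue-restricted subunit of the proton pump that acidifies lysosomes (chr4:19876841-19922605, minus strand), ran from 0.746 to 24 CPM. Its means lay between 4.40 ± 3.84 CPM in silicon + NR (SD, n = 6) and 10.6 ± 7.64 in mock (SD, n = 7). Its broadly expressed counterpart Atp6v0d1 was far steadier, at 42.7 to 79.2 CPM. Cd68, a glycoprotein of late endosomes and lysosomes (chr11:69664213-69666153, minus strand), ran from 4.64 to 15.2 CPM in silicon + NR (median 9.92) and from 9 to 40.9 in silicon (median 15), and in gamma it was 15, 17.4, 21.6, 11.4 and 8.12 CPM. In mock it ran from 11.1 to 26.1 CPM (median 17.6), in GCR from 4.30 to 19.4 (median 15.4), and in mock + NR it took the values 15.3, 8.31, 7.06, 32 and 17 CPM. As for Marco, its 3 highest values (32 to 40.9 CPM) belonged to the libraries with Ccl19 over 100 CPM, and the other 34 held 4.30 to 26.1.

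Ctsk, the collagen-cleaving protease cathepsin K (chr3:95499256-95509362, plus strand), ranged from 7.57 to 40.9 CPM in mock (median 31.9), 13.4 to 48.6 in silicon (median 34.2), 28.5 to 57.4 in silicon + NR (median 50.4) and 20 to 50.3 in GCR (median 32.8). In mock + NR it was 50.4, 24.3, 57.3, 45.4 and 57.1 CPM, and in gamma 36.8, 38.3, 20.7, 44.6 and 54.7 CPM. In all, 4 of the 5 mock + NR values thus lay above every mock value, and the fifth lay within the mock range. Plet1, a membrane protein of epithelial progenitors and some myeloid cells (chr9:50494525-50505482, plus strand), ranged from 15.1 to 65.6 CPM in mock (median 56.6), 9.99 to 89.4 in silicon (median 62.0), 47.1 to 104 in silicon + NR (median 73.7) and 42.2 to 85.7 in GCR (median 60.7). In mock + NR it was 117, 45.4, 70.2, 49.3 and 91.5 CPM, and in gamma 43.8, 47.8, 28.5, 92.0 and 68.2 CPM. Plet1 shares 261 exon bases with the antisense gene Plet1os, whose reads cannot be told apart without strand; Plet1os had a median of 0.517 CPM.

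Ranking the 6 groups by mean for each gene gave 50 pairs of neighbours over the 10 genes. In 0 of the 50 did the means differ by more than the larger SD of the pair, and in all 50 the ranges overlapped. Neighbours in a ranking have the smallest gaps, so this does not bear on groups farther apart in it.

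**Figure D1:**
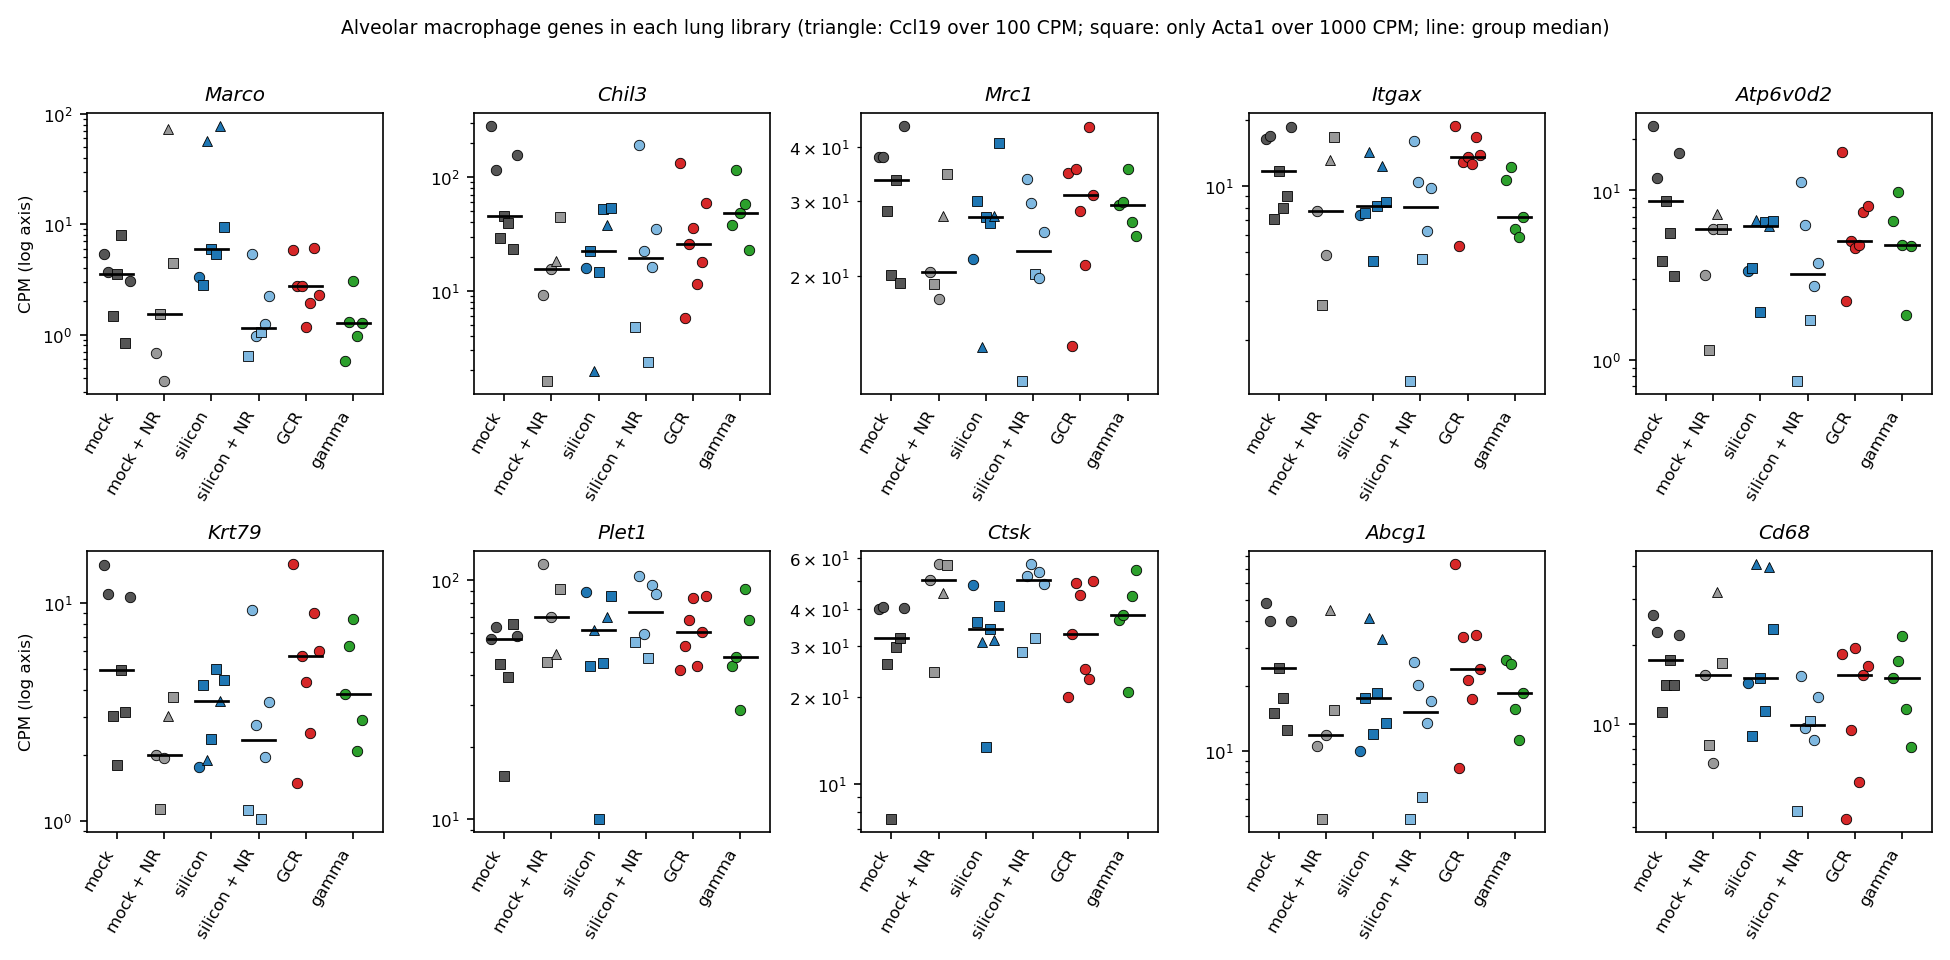
CPM of each of the 10 genes (log axis) in every library of the 6 groups; points are mice, lines are group medians, triangles are the 3 libraries with Ccl19 over 100 CPM and squares the other libraries with Acta1 over 1000 CPM. Groups overlap for every gene, Marco stands at 57.4 to 77.6 CPM in the 3 triangles, and Chil3 reaches 115 to 283 CPM in the 3 mock libraries drawn as circles.

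Silicon against mock asks what silicon ions alone did. By edgeR's quasi-likelihood test with Benjamini-Hochberg adjustment over 16977 genes, none of the 10 genes passed an adjusted p of 0.05, where 0% of all genes passed. Marco was higher in silicon by a log2 fold change of 2.84 (SE 0.90, adjusted p = 0.133) and Chil3 lower (-1.70, SE 0.83, adjusted p = 0.386). These were the 2 of 10 with an unadjusted p under 0.05, where 12.9% of all genes had one. DESeq2 also called none of the 9 genes it tested, here and in every comparison that follows; it gave Marco no p. The members' median log2 fold change was -0.27, against 0.07 over all genes.
Marco's difference rested on few libraries: without the 3 with Ccl19 over 100 CPM it was 0.63 (SE 0.62, adjusted p = 0.808), and without those and the muscle-rich ones -0.26. Beside Chil3, the 8 type 2 cell genes were all negative (median -0.85), as were the 9 endothelial genes (median -1.30), 8 of them with an unadjusted p under 0.05 and 0 called. The part of these cell types in it was not tested. Beside Marco, the 7 lymphoid genes had the same direction, with log2 fold changes from 2.14 to 3.43, and their summed level ran from 40.2 to 1970 CPM in silicon and from 33 to 197 in mock; 0 of the 7 passed the adjusted test.

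Chil3 and Krt79 were the genes whose call changed with the muscle-rich libraries. Without these 13 libraries, both fell in silicon against mock, Chil3 at a log2 fold change of -4.68 (SE 1.28, adjusted p = 0.0422, edgeR) and Krt79 at -3.02 (SE 0.77, adjusted p = 0.0300, edgeR), with 3 mock and 2 silicon libraries left. Many other genes passed in this fit too, as counted in the last section, so the calls are not particular to Chil3 and Krt79. With the lymphoid-rich libraries also left out, 1 silicon library remained, assumed to vary like the other groups, and neither was called: Chil3 was -3.75 (SE 1.58, adjusted p = 0.485, edgeR) and Krt79 -2.89 (SE 1.04, adjusted p = 0.421, edgeR). The direction of the muscle split differed by group. Within mock, 8 of the 10 genes were higher in each of the 3 muscle-poor libraries than in any of the 4 muscle-rich ones, and within silicon + NR 7 of 10 were, for 4 against 2 libraries. In silicon and in mock + NR 0 of 10 were. In silicon, Mrc1 and Krt79 were lower in the 2 muscle-poor libraries than in the 5 muscle-rich ones. The share of all genes that separated in these ways is not given, so the counts cannot show a trait particular to the members.

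In GCR against mock, the comparison with the most calls over all genes, none of the 10 genes passed, where 16.6% of all genes did (0 of 10 members against 34.4% of all genes at an unadjusted p under 0.05). The members' log2 fold changes lay between -0.97 for Chil3 (SE 0.78, adjusted p = 0.386) and 0.47 for Plet1 (SE 0.31, adjusted p = 0.275), with a median of 0.23 against -0.06 over all genes. In gamma against mock none passed, where 0.0295% of all genes did, and 0 of 10 had an unadjusted p under 0.05, where 10% of all genes (1701) did. The members lay between -1.24 for Marco (SE 0.94, adjusted p = 0.711) and 0.38 for Ctsk (SE 0.29, adjusted p = 0.714), with a median of -0.53 against -0.01. Both comparisons share the mock mice with silicon against mock.

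Nicotinamide riboside without radiation, mock + NR against mock, gave 5 of 10 members an unadjusted p under 0.05, where 16.9% of all genes had one; none of the 10 passed after adjustment, where 0% of all genes did. Chil3 was lower in mock + NR by a log2 fold change of -2.37 (SE 0.93, adjusted p = 0.171, edgeR) and Krt79 by -1.45 (SE 0.55, adjusted p = 0.158, edgeR). Ctsk and Plet1 were higher, by 0.76 (SE 0.28, adjusted p = 0.153, edgeR) and 0.78 (SE 0.33, adjusted p = 0.207, edgeR). Marco was higher by 2.04 (SE 0.89, adjusted p = 0.220, edgeR), a direction set by 1 library: without mock + NR replicate 4 it was -0.96. The members' median was -0.37, against -0.01 over all genes.
The type 2 cell genes were lower in sum alongside Chil3, though 3 of the 8 had small positive log2 fold changes (at most 0.18), with levels of 2580 to 13600 CPM in mock + NR and 9170 to 46000 in mock, and the airway genes higher alongside Ctsk and Plet1, with 117000 to 332000 CPM in mock + NR and 69200 to 171000 in mock. Of the 8 genes of each list, 0 passed the adjusted test, and their part in the members' differences was not tested. Without the muscle-rich libraries both Chil3 and Krt79 fell, Chil3 at -3.91 (SE 1.04, adjusted p = 0.0487, edgeR) and Krt79 at -2.53 (SE 0.64, adjusted p = 0.0392, edgeR), over 3 libraries a group. Here too many other genes passed, as counted in the last section. The 3 mock libraries are those left in silicon against mock without muscle-rich libraries. They held the highest Chil3 and Krt79 values of mock, so these calls and the silicon calls are not independent. Without the lymphoid-rich libraries as well, 2 mock + NR libraries remained and neither was called: Chil3 was -3.96 (SE 1.18, adjusted p = 0.0791, edgeR) and Krt79 -2.61 (SE 0.77, adjusted p = 0.0759, edgeR).

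With nicotinamide riboside in both groups, silicon + NR against mock + NR, none of the 10 genes passed, where 0% of all genes did. Marco was lower at a log2 fold change of -2.87 (SE 0.97, unadjusted p = 0.0058, adjusted p = 1, edgeR), the only 1 of 10 with an unadjusted p under 0.05, where 2.16% of all genes had one. Without mock + NR replicate 4 it was 0.06. Chil3 had the highest value, 1.29 (SE 0.91), which was -0.21 without silicon + NR replicate 2. The members' median was -0.14, against -0.01.

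Among silicon mice, those given nicotinamide riboside had less Marco (-3.67, SE 0.97, adjusted p = 0.0707, edgeR) and less Cd68 (-1.07, SE 0.34, adjusted p = 0.150, edgeR), the 2 of 10 members with an unadjusted p under 0.05, where 12.8% of all genes had one. None passed after adjustment, where 0% of all genes did. The highest Marco value in silicon + NR was 5.41 CPM and the lowest in silicon 2.84, so the groups overlapped. Marco passed when any 1 of 5 libraries was left out (silicon replicates 1, 2 or 5, mock + NR replicates 3 or 4), with adjusted p from 0.0164 to 0.0482 (edgeR). The mock + NR libraries are in neither group compared and enter through the shared fit. Leaving out single libraries gave 0 to 336 calls over all genes in this comparison. Without the lymphoid-rich libraries Marco was -1.57 (SE 0.63, adjusted p = 0.804, edgeR) and Cd68 was -0.56 (SE 0.32). Chil3, at 0.62 (SE 0.86), was -0.75 without silicon + NR replicate 2. The members' median was -0.15, against -0.05.

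The interaction, the silicon effect with nicotinamide riboside minus that without it, was -5.70 for Marco (SE 1.29, adjusted p = 0.0821, edgeR) and 2.99 for Chil3 (SE 1.27, adjusted p = 0.356, edgeR). None of the 10 passed, where 0% of all genes did, and 2 of 10 had an unadjusted p under 0.05, where 9.95% of all genes did. Without the lymphoid-rich libraries Marco's interaction was -0.54 (SE 0.93), and without these and the muscle-rich ones 2.54 (SE 1.33). Marco passed without any 1 of silicon replicates 2 or 5 or mock + NR replicates 2 or 3 (adjusted p from 0.0355 to 0.0473, edgeR). Leaving out single libraries gave 0 to 151 calls over all genes in the interaction. Without the muscle-rich libraries the interaction was 7.03 for Chil3 (SE 1.60, adjusted p = 0.0116, edgeR) and 4.13 for Krt79 (SE 0.98, adjusted p = 0.0138, edgeR), over 12 libraries of the 4 groups. These include the same 3 mock libraries as the calls above without muscle-rich libraries, so the results are not independent. Many other genes passed in this fit as well, as counted in the last section. Without the lymphoid-rich ones as well, neither passed, at 6.22 for Chil3 (SE 1.97, adjusted p = 0.146, edgeR) and 4.15 for Krt79 (SE 1.27, adjusted p = 0.139, edgeR). The members' median was 0.13, against -0.08.

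Between females and males no member passed, where 0.0589% of all genes did, nor did any have an unadjusted p under 0.05, where 3.15% of all genes had one. Gamma replicate 5 counted as female in this contrast. On leaving out any single library, 0 members and 10 to 11 of all genes were called. Log2 fold changes of females against males lay between -0.58 for Marco (SE 0.57) and 0.26 for Plet1 (SE 0.19), with a median of -0.08 against -0.00 over all genes.

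**Figure D2:**
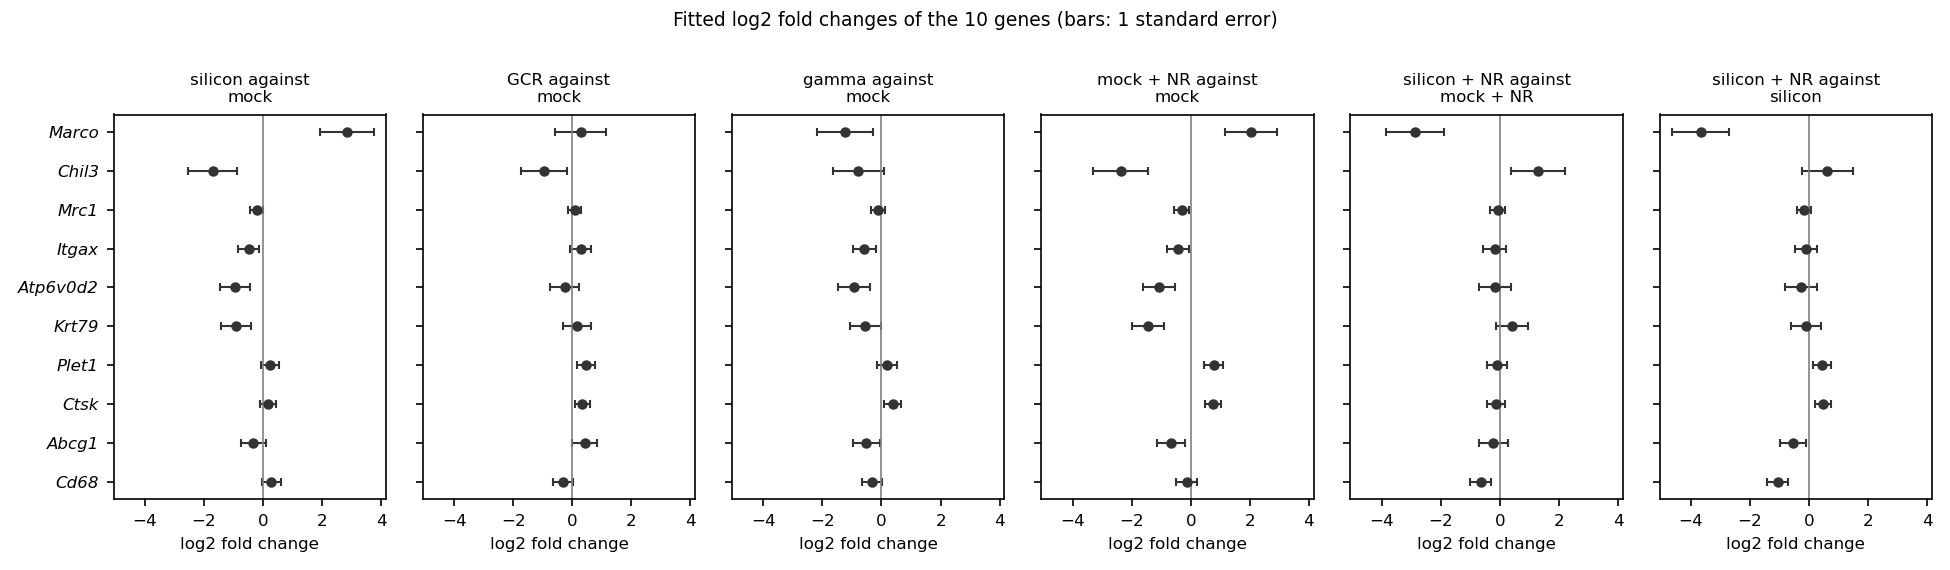
Fitted log2 fold changes of the 10 genes in the 6 comparisons between groups; points are edgeR estimates and bars 1 standard error. Marco has the value farthest from 0 among the 10 in silicon against mock (2.84), silicon + NR against mock + NR (-2.87) and silicon + NR against silicon (-3.67), and Mrc1 lies between -0.31 and 0.09 in the 6 panels.

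Other genes of the cell's known programs came from lists chosen by function, also with earlier results of these data known. Of 28 further alveolar macrophage genes, 26 were tested and 0 were called in any comparison named above; in mock + NR against mock, 25 of the 26 had negative log2 fold changes, with a median of -0.51, among them the ribonuclease Ear1 (-2.51, SE 0.81, adjusted p = 0.115, edgeR), the carbonic anhydrase Car4 (-2.01, SE 0.57, adjusted p = 0.102, edgeR) and the scavenger receptor Olr1 (-1.89, SE 0.62, adjusted p = 0.118, edgeR). Car4 is also made by lung capillary cells, and the 9 endothelial genes were all negative too, with a median of -1.43. Over all genes 8736 of 16977 were negative in mock + NR against mock. So were 11 of 12 general macrophage genes (median -0.53), all 9 neutrophil genes tested (-1.69) and all 7 fibroblast genes (-0.32). The 8 airway genes and the 7 lymphoid genes were all positive. The GM-CSF, TGF-beta and PPAR-gamma list had 0 of 18 genes called in every comparison. Of its genes, Csf2rb2 had an interaction of -3.48 (SE 0.93, adjusted p = 0.0876, edgeR). The GM-CSF receptor chains Csf2rb and Csf2ra had interactions of -1.88 (SE 0.75, adjusted p = 0.299, edgeR) and 0.32 (SE 0.40). Of the 18 genes, 11 had positive interactions, and the median was 0.07. The 7 lymphoid genes had interactions from -7.21 to -3.95, with 0 called. The Csf2rb2 interaction without the lymphoid-rich libraries is not given.
In GCR against mock, where 16.6% of all genes passed, 1 of 16 proton pump genes rose (Atp6v0d1, 0.36, SE 0.11, adjusted p = 0.0317, edgeR) and 0 fell, and 3 of 16 lysosomal genes fell and 0 rose. The 3 were the protease Ctsl (-0.61, SE 0.16, adjusted p = 0.0150, edgeR), Ctsa (-0.67, SE 0.19, adjusted p = 0.0222, edgeR) and Psap, the precursor of the saposins (-0.87, SE 0.30, adjusted p = 0.0466, edgeR). Of 17 lipid-handling genes 1 fell, the oxysterol receptor Nr1h2 (-0.38, SE 0.13, adjusted p = 0.0427, edgeR). Of 12 general macrophage genes 1 fell, Mertk, a receptor for dying cells (-1.13, SE 0.33, adjusted p = 0.0239, edgeR), and of 15 interstitial macrophage and monocyte genes 1 fell, the hemoglobin scavenger receptor Cd163 (-1.08, SE 0.36, adjusted p = 0.0411, edgeR). Of the 4 chitinase family genes besides Chil3, Chit1 fell by 6.09 (SE 1.90, adjusted p = 0.0299, edgeR). In the same comparison 7 of 7 skeletal muscle genes fell, with a median of -7.39, and these calls do not hold without the muscle-rich libraries or without the high-Rn45s libraries, where 0 of all genes passed in GCR against mock.

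Across the 37 libraries most of the 10 genes varied together, and Plet1 and Ctsk did so only with each other. Of their 45 pairs, 23 had a positive Pearson correlation of log2 CPM that passed after Benjamini-Hochberg adjustment (permutation test, 100000 resamples, two-sided), and 0 had a negative one. Without Marco, for which the libraries form separate clusters, 20 of 36 pairs were called. The share called among pairs of other genes is not given. Chil3, Itgax, Atp6v0d2, Krt79 and Abcg1 formed the main set, with 10 of 10 pairs called and r from 0.57 to 0.87 (median 0.77). The set was grouped by these same correlations, so its called pairs describe the grouping and do not test it. Atp6v0d2 and Abcg1 were the closest pair (r = 0.87, rho = 0.84, permutation p = 1e-05 for both, the smallest the resamples can give, adjusted p = 4.10e-05 and 7.50e-05). Without the 2 libraries farthest from the median of Atp6v0d2, r was 0.83. Mrc1 had called pairs with all 5 of these genes, with r from 0.53 with Abcg1 to 0.80 with Krt79 (for Krt79, rho = 0.83, permutation p = 1e-05 for both; r = 0.81 without the 2 farthest libraries). On residuals after group and sex the 10 pairs of the main set had r from 0.59 to 0.87, and without the muscle-rich libraries from 0.38 to 0.87.

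Plet1 and Ctsk formed a pair of their own. They correlated with each other (r = 0.82, rho = 0.74, permutation p = 1e-05 for both; r = 0.72 without the 2 farthest libraries and 0.72 without the muscle-rich ones) and each had 1 called pair out of 9, this one. Both also varied with Scgb1a1, the secretory protein of airway club cells: Ctsk with r = 0.66 and rho = 0.66 (permutation p = 3.00e-05 and 2e-05, adjusted p = 1.60e-04 and 2e-04; r = 0.66 without the 2 farthest libraries), and Plet1 with r = 0.58 and rho = 0.47 (permutation p = 2.20e-04 and 0.0033, adjusted p = 8.80e-04 and 0.012; r = 0.46). Of the tested genes, those most like Plet1 were Drc1 (r = 0.93 over 37 libraries), a gene of the ciliary axoneme, and Capsl (0.92), and those most like Ctsk were Gdpd1 and Slc16a12 (both 0.94).

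Marco and Cd68 had their highest values in the 3 libraries with high Ccl19. Over the other 34 libraries Marco had r = 0.65 with Mrc1, 0.53 with Krt79, 0.48 with Cd68, and 0.39 to 0.43 with Chil3, Itgax, Atp6v0d2 and Abcg1. It had r = 0.31 with C1qa, the complement component made by interstitial macrophages, and -0.27 and -0.36 with Plet1 and Ctsk; no pooled r is given, since the libraries form separate clusters for Marco. Cd68 had called pairs with 4 of the 5 genes of the main set over all libraries (all but Chil3), and over the 34 its r with the 5 was 0.54 to 0.66. C1qa itself was at 80.1 to 95.5 CPM in the 3 libraries and at 9.46 to 62.5 in the other 34, while Chil3 (1.97 to 37.8 CPM), Krt79 (1.90 to 3.57) and Siglecf (0.458 to 1.33) were within the range of the others. Cd68 varied with C1qa over all libraries (r = 0.79, rho = 0.73, permutation p = 1e-05 for both, adjusted p = 8.90e-05 and 1.60e-04; r = 0.74 without the 2 farthest libraries and 0.69 without the 3 lymphoid-rich ones). The genes most like Cd68 were the protease Ctss (r = 0.95), B2m and Itgb2 (both 0.92).

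The main set varied with genes of other alveolar cells. Chil3 had r = 0.92 with Sftpc, the surfactant protein of type 2 cells (rho = 0.87, permutation p = 1e-05 for both, adjusted p = 8.90e-05 and 1.60e-04; r = 0.88 without the 2 farthest libraries), and Sftpc was the gene most like it of all tested. Krt79 had r = 0.82 with Sftpc (rho = 0.87, permutation p = 1e-05 for both; r = 0.80 without the 2 farthest), and 6 of the 10 genes had a called positive correlation with Sftpc. Likewise 7 of 10 had one with the endothelial gene Pecam1, 2 of 10 (Plet1 and Ctsk) with Scgb1a1, and 0 of 10 with the collagen gene Col1a1, among the 8 genes of other cells tried. Negative calls were found too, with 5 of 10 members for Acta1 (2 of them called by rho as well) and 6 of 10 for Krt5, the keratin of basal and squamous epithelium (4 by rho as well). The share of all tested genes called with the same partners is not given. The counts therefore cannot show a trait particular to the members. The libraries form clusters for Acta1, so its pooled calls span these clusters. Within the 24 muscle-poor libraries the members' r with Acta1 ran from -0.50 to 0.32 (median 0.01), and with Krt5 from -0.69 to 0.58 (median -0.51). Without the muscle-rich libraries the Chil3 and Sftpc r was 0.88, and on residuals after group and sex 0.91. How much of the spread in these genes follows the share of alveolar tissue in a sample was not tested.

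**Figure D3:**
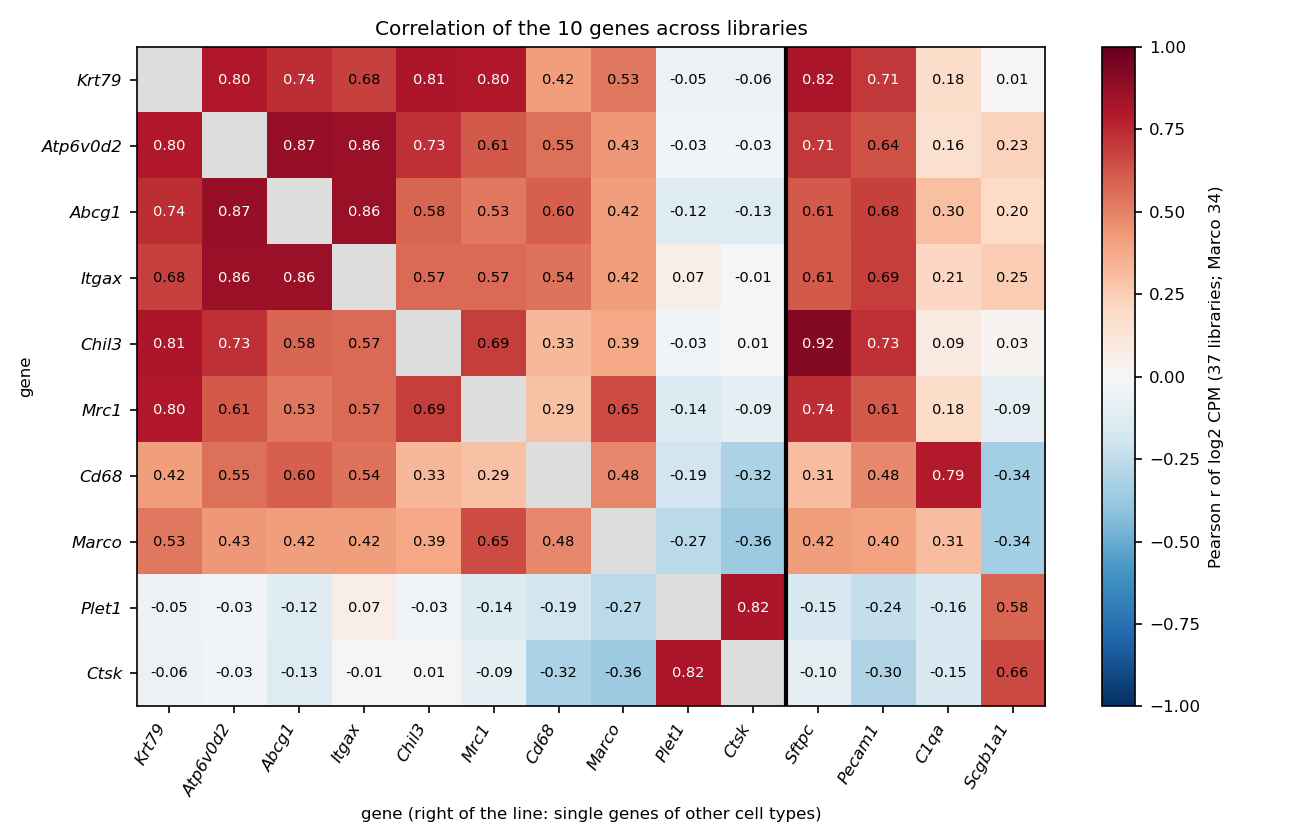
Pearson r of log2 CPM across 37 libraries between the 10 genes (rows and columns left of the line) and with 4 genes of other cells (right of the line); Marco's values are over the 34 libraries with less Ccl19. The block from Krt79 to Mrc1 is positive throughout, Plet1 and Ctsk share r = 0.82 with each other, and Chil3 with Sftpc has r = 0.92.

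The plot of single genes against their cell-type partners shows Marco, Chil3 and Ctsk library by library. By the mean r over all 10 genes, Marco included over all 37 libraries, the most alike of all other genes were Mpeg1, a pore-forming protein of phagocytes (mean r 0.56, from -0.03 with Ctsk to 0.94 with Abcg1), Cd200r4, AF251705 and Gsap (0.55 each), Tnfsf13b (0.54), and Serpinb6b, Nxpe2 and the beta-glucan receptor Clec7a (0.53 each). Krt79 was like Pdgfra (r = 0.88) and Siglecf (0.87), Itgax and Abcg1 like Mpeg1 (0.93 and 0.94), and Atp6v0d2 like Cd200r4 (0.89). These values describe 37 libraries that share tissue content and carry no test.

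**Figure D4:**
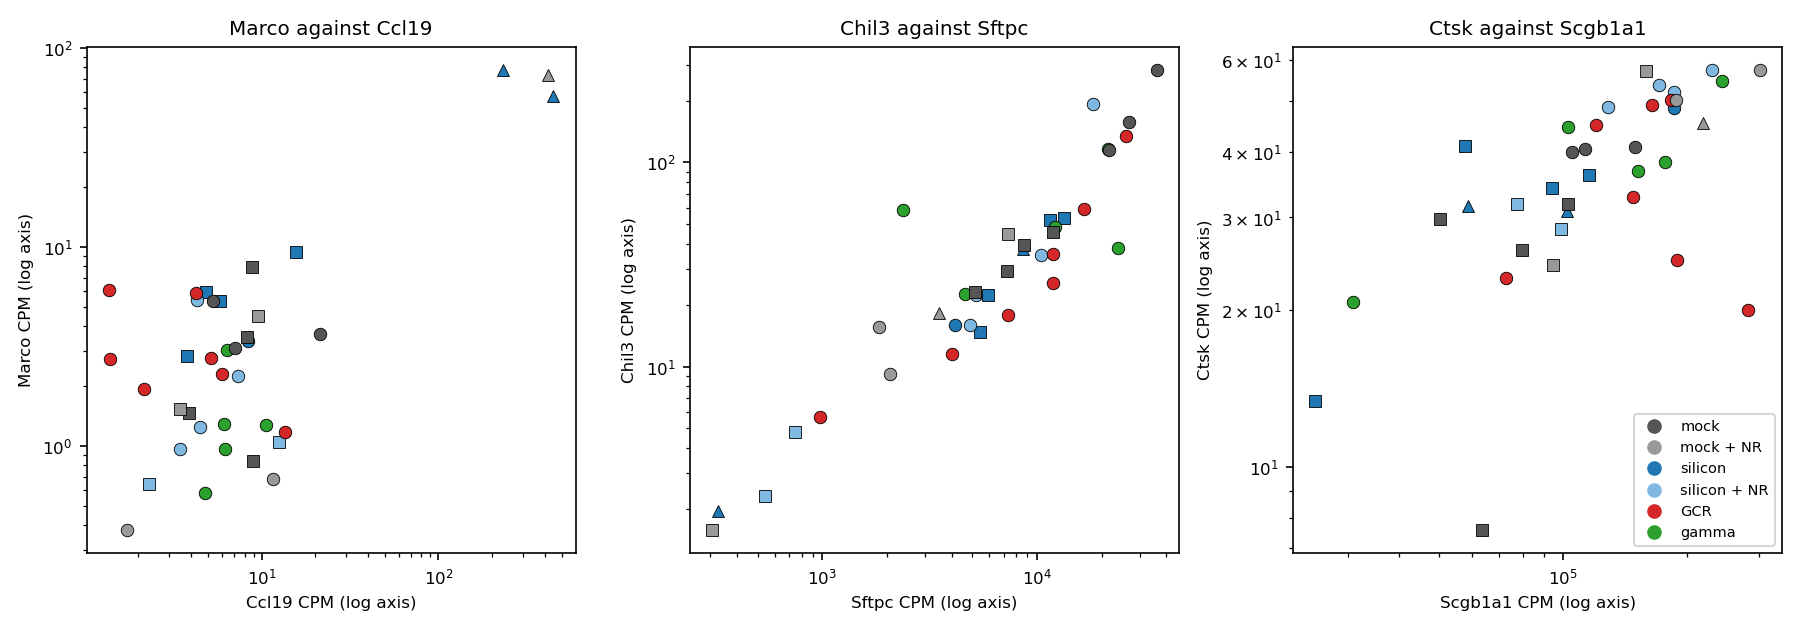
CPM of Marco against Ccl19, Chil3 against Sftpc and Ctsk against Scgb1a1, all on log axes, with 1 point per library coloured by group (triangles are libraries with Ccl19 over 100 CPM, squares other libraries with Acta1 over 1000 CPM). Marco is at 57.4 to 77.6 CPM only in the 3 triangles, Chil3 follows Sftpc with r = 0.92, and Ctsk follows Scgb1a1 with r = 0.66.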

How the data were processed

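Lung RNA was prepared with Trizol, copied to cDNA with SMART-seq v4 reagents and made into Nextera XT libraries without strand information, per the labels' protocols. The tools named, per the submitters' processing notes, are STAR 2.5.2, HTSeq 0.13.5, Trimmomatic 0.36, FastQC 0.11.4 and MultiQC 1.12, with build mm10. Not given in the sources used here are their roles and settings, the annotation and the handling of multi-mapping reads. The table the authors deposited holds raw counts per gene symbol. Without molecular identifiers, counts are not independent molecules.

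Groups and sex came from the labels, replicate numbers from accession order. No 2 libraries of a group agreed within sampling noise (chi-square over genes), so all 37 were kept. CPM were computed from total counts. The counts were tested with edgeR 4.0.16 in R 4.3.3 (quasi-likelihood, TMM, filterByExpr, 16977 genes, group and sex over all libraries), Benjamini-Hochberg adjusted over these genes, with a call at an adjusted p under 0.05. The test was also run on simulated counts with changes placed in GCR. These held no clusters of muscle-rich, lymphoid-rich or high-Rn45s libraries, so they do not bear on calls that move with such libraries. Log2 CPM for correlations used a prior count of 2. Correlations were adjusted over the 45 member pairs and, separately, over the pairs of the 10 members with 8 genes of other cells. Positions are from GENCODE M21. The members and lists were chosen with earlier results of these data known. Named genes were all members, up to 3 genes of smallest p of a list with a call, up to 3 of smallest p of a list without one, and the 8 genes of highest mean r. The main set of correlated genes, the genes nearest to single members, Siglecf, Csf2ra and the comparison given for Csf2rb2 were chosen after their values were seen. The alternatives were RLE size factors, DESeq2 1.42.0, a model without sex, no filter on counts, only the groups compared, and leaving out kinds of library or single libraries; leaving out lymphoid-rich and muscle-rich libraries together, and correlations without lymphoid-rich or high-Rn45s libraries, were chosen after seeing the data.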

Additional observations from a re-analysis of the deposited data

Results flagged for a closer look

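In 9 of the 60 sets of 1 gene in 1 group, the highest library lay far from the others by Dixon's criterion, and these 9 came from 4 libraries. A rate of about 1 in 20 by chance holds for independent sets of normally distributed values. CPM were skewed and most of the genes varied together, so 9 of 60 cannot be read as an excess over chance. Marco was at 73.1 CPM in mock + NR replicate 4, where Abcg1 was at 45 CPM; this is the mock + NR library with Ccl19 over 100 CPM. In silicon + NR replicate 2 Marco was at 5.41 CPM, Chil3 at 194 CPM and Krt79 at 9.30 CPM. In GCR replicate 1 Chil3 was at 134 CPM, Atp6v0d2 at 16.8 CPM and Abcg1 at 73.6 CPM. GCR replicate 1 also had the fewest genes with counts of the 37 libraries (16168). In gamma replicate 3 Marco was at 3.03 CPM. This library has 17500 CPM of the atrial heart peptide Nppa, and its further alveolar macrophage genes summed to 11700 CPM, against 791 to 5660 in the other 36. Which genes made up that sum is not given, and Siglecf was at 2.10 CPM in this library. In gamma against mock, 10 genes of that list had positive log2 fold changes, the highest 1.77 for Cidec, and 16 had negative ones.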

How the results depend on the processing

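Of 1023 values of 22 log2 fold changes of members under other settings, 998 kept their direction and side of the threshold, 15 became called and 10 reversed. All 120 mean levels under other library sizes moved by less than 1 SD. The reversed values were, for Marco, -1.03 (mock + NR against mock) and 0.09 (silicon + NR against mock + NR) without the lymphoid-rich libraries. Without these and the muscle-rich libraries they were -0.26 (silicon against mock), -2.83, 2.28 and 2.54 (the interaction). Leaving out single libraries gave Marco -0.96 (without mock + NR replicate 4) to 2.35 in mock + NR against mock and -3.44 to 0.06 (without the same library) in silicon + NR against mock + NR. It gave Chil3 -0.21 to 1.94 there and -0.75 to 0.89 in silicon + NR against silicon, with both lowest values without silicon + NR replicate 2. The number of members called was 0 in all comparisons and 2 without the muscle-rich libraries in silicon against mock, mock + NR against mock and the interaction; it ranged from 0 to 1 on leaving out single libraries in silicon + NR against silicon and in the interaction.

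Over all genes, DESeq2 called 425 in silicon against mock, 259 in gamma against mock, 591 in mock + NR against mock, 1 in silicon + NR against mock + NR, 353 in silicon + NR against silicon and 327 in the interaction, where edgeR called 0, 5, 0, 0, 0 and 0. It gave Marco no p. A fit of only the groups compared called 909 genes for GCR (2811 with all libraries) and 0 for gamma. Without the muscle-rich libraries the counts were 725 (silicon), 0 (GCR), 0 (gamma), 425 (mock + NR), 179 (silicon + NR against silicon), 1335 (interaction) and 2 (sex, 10 with all libraries). Without the high-Rn45s libraries GCR had 0, and without the lymphoid-rich ones gamma had 2. Without both lymphoid-rich and muscle-rich libraries they were 0 (GCR), 0 (gamma), 281 (mock + NR), 18 (interaction) and 2 (sex). Leaving out single libraries gave 501 to 4087 for GCR, 1 to 18 for gamma, 0 to 307 for silicon, 0 to 265 for mock + NR, 0 to 336 for silicon + NR against silicon and 0 to 151 for the interaction. The cause of these shifts was not tested. The 23 correlated member pairs (3 of them Marco's, pooled) were 22 to 30 under 4 other settings. No paired analysis was possible because the numbers follow accession order and pair no mice. Marco (10 counts at the least) and Krt79 (26) have the least depth.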
